A study of Rattus norvegicus with 18 samples.

Results

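The data described here are the 9 arrays of distal colonic mucosa in a set of 18 Affymetrix rat expression arrays, chosen by their titles, which name the distal colon and the number of the rat. The other 9 arrays are of proximal colonic mucosa from the same rats, numbered 1 to 8 and 10, and they enter here only to ask whether a rat that stood apart in distal colon stood apart in its proximal colon too. Every rat was a male Sprague Dawley kept for 10 days on AIN-93G diet in a modified form. Each was then given azoxymethane, a colon carcinogen, by subcutaneous injection at 15 mg per kg, 6 h before it was killed. At the distal end 0.5 cm of colon was discarded, the next 4 cm was scraped, and 4.5 µg of RNA from that scraping went onto an array. Its design text speaks of 10 rats allocated to 2 groups, with 5 in each, and its growth protocol of 20 per group. Which rat was in which group is not in the labels, so differences between rats may include it, and that could not be examined. Rat 9 was not analysed here, and no untreated rats were among the samples. The p-values of slopes and correlations rest on the spread between these rats. An F-test described further on sets that spread against the difference between the 2 arrays of a rat. The number of rats limits the precision of every value. What follows is the level of each gene in distal mucosa and its spread over the 9 rats. No difference between the regions was tested, and because each region was normalized by itself, a distal level is not set against a proximal level of the same gene.

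The distal colon is the last stretch of bowel in which salt, water and iron can still be taken back. Its surface cells absorb sodium through the epithelial sodium channel, which aldosterone controls, and through sodium-hydrogen exchange, while goblet cells cover the surface with mucus and dividing cells low in the crypts renew both. Beneath this sheet lie a connective tissue with fibroblasts, vessels and immune cells, and a thin layer of muscle, and a scraping carries a varying share of each. In a scraping, fewer cells of a type and less RNA per cell cannot be told apart.

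The arrays had the marks of distal colonic epithelium. All 9 epithelial markers were past the filter on low signals, and all 3 Hox genes of the hindgut were too, with Hoxb13 at a log2 signal of 11.53 to 11.98 over the rats and Hoxd10 at 9.47 to 10.32. Log2 signal here is log2 of the deposited intensity plus 16, after quantile normalization of the 9 arrays. All 5 goblet, 3 enteroendocrine, 4 smooth muscle, 3 fibroblast, 3 T cell and 3 macrophage markers were past the filter as well, whereas of 4 markers of enteric glia and neurons only S100b was, and of 3 of endothelium only Pecam1. S100b was highest in rats 3 (9.39), 2 (8.25), 10 (7.56) and 8 (6.84), the order found below for several fat cell genes. It is therefore not read here as a sign of glia. Pancreas and liver had been listed as tissues that should be absent. The pancreatic markers Cpa1 and Cel were below the filter. Ins1, also listed for pancreas (5.95 to 6.88), and Alb, listed for liver (5.85 to 7.73), were past it at a similar level. Apoa1, the other gene listed for liver, was higher (7.51 to 9.52).

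The brightest probe sets were those of mitochondrial respiration, ribosomes and the epithelial sheet. The 20 genes of highest mean signal lay between 13.32 and 13.74 on the log2 scale, with SDs of 0.02 to 0.17 over the 9 rats. Among them were COX1 and COX2, subunits of the terminal enzyme of respiration, the ribosomal proteins Rps29, Rpl26, Rpl27a and Rps23, and the simple-epithelium keratins Krt8 and Krt19. Others were Epcam and Cd24, surface glycoproteins of epithelium, Lypd8, which keeps flagellated bacteria off the colonic surface, and Pigr, which carries antibodies into the lumen. Agr2, needed for mucin folding, Clca1, secreted with mucus, and Lgals4, a galectin of the gut surface, were also among the 20, as were Txn1, S100a6, S100g, B2m and Adh1c. Probe sets differ in brightness at the same transcript level and the scale is compressed near its top, so the order within this group says little, and small SDs there are partly a property of the scale.

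The steadiest of the bright genes were Rpl26, COX2, Atp1b1, Rpsa, Rpl5, S100a6, Epcam, Rpl27a, Cd24 and Eif4h, each with an SD of 0.02 or 0.03. Atp1b1, the β subunit of the sodium pump on the basal side of colonocytes, ran only from 13.24 to 13.31. Epcam ran from 13.44 to 13.53.

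Over all 11351 genes the median SD between rats was 0.21 log2 units (interquartile range 0.14 to 0.30). In 2482 genes (21.9%) the highest rat exceeded the lowest at least 2-fold, in 551 (4.85%) at least 4-fold and in 55 at least 16-fold. These shares are the background against which the gene groups below are read. Counts of list members that were highest or lowest in a single rat are given below without a share of all genes. They describe the values only, since an array can be at the end of the range for many genes. Of the 60 most variable genes, 27 were highest in rat 3 and 22 in rat 7. The deposited intensities differed in overall brightness by 1.62-fold between the dimmest and the brightest distal array, and in limma no gene had a slope on brightness past an adjusted p of 0.05 after quantile normalization (719 at an unadjusted p below 0.05). The ratio of the 3′ to the 5′ Gapdh control probe sets, a sign of RNA integrity, ran from 1.21 in rat 7 to 1.67 in rat 3, and 34 genes (0.3%) had a slope on it past the threshold in limma, 13 upward and 21 downward (1598 at an unadjusted p below 0.05). Leaving out a rat moved this count from 39 without rat 2 to 6 without rat 1, 14 without rat 5, 17 without rat 6, 3 without rat 10 and 0 without rat 3, 4 or 8 (655, 1416 and 1436 at an unadjusted p below 0.05 in limma). The same ratio of the Actb control probe sets ran wider, from 1.73 in rat 5 to 3.52 in rat 3. Next to rat 3 came rats 10 (2.5), 6 (2.38) and 2 (2.05). No slope on the Actb ratio was fitted.

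**Figure D1:**
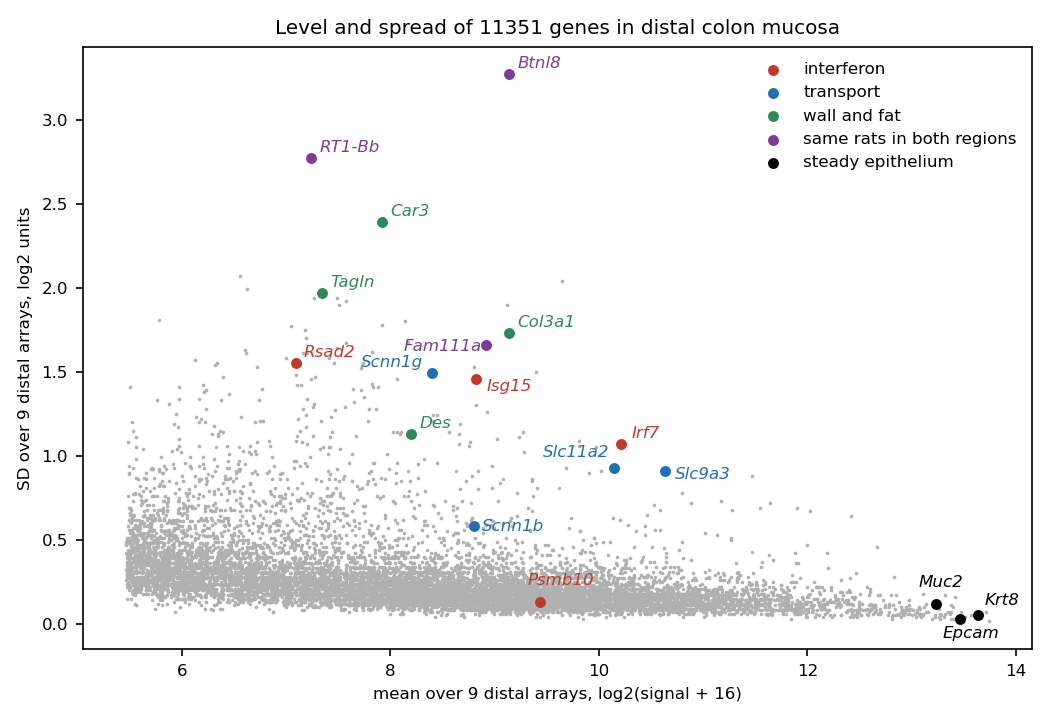
Each grey point is 1 of 11351 genes, with its mean over the 9 distal arrays on the x axis (log2 of signal plus 16) and its SD over the same arrays on the y axis (log2 units). Coloured points are genes described in the text, from Epcam near an SD of 0.03 to Btnl8 at 3.27.

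Interferon-response genes differed widely between rats, and rat 2 was usually the highest. Interferons signal through Stat and Irf factors to a set of antiviral genes, many of which carry a short element named ISRE, with the letters GAAANNGAAA on either strand, close to their start. Of 60 genes on the list 51 were measured, with a median SD of 0.49, and in 39 (76.5%) the highest rat exceeded the lowest at least 2-fold, against 21.9% of all genes. The stretches below show that element in 5 genes that varied widely and in 1 that did not. They were read from RefSeq promoter sequences (build GRCr8), 5′ to 3′ on the strand of the gene. Each lies in the 250 bases before a start, with 1 match to the element in capitals. The stretches of Oas1a and Bst2 each hold another match, which overlaps the one in capitals and is partly in lower case.

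Irf7: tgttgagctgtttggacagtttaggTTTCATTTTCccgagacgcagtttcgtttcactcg
Rsad2: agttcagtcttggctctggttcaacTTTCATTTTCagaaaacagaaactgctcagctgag
Ifit3: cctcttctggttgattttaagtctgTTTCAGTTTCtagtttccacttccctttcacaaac
Oas1a: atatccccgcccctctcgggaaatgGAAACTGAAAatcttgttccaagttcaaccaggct
Bst2: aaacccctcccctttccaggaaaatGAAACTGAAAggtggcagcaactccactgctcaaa
Psmb10: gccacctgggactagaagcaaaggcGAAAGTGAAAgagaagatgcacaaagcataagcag

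The Irf7 stretch lies at chr1:205800058-205800117 on the minus strand and that of Rsad2 at chr6:48788233-48788292 on the minus strand. Ifit3 is read from chr1:241527257-241527316 on the plus strand and Oas1a from chr12:41330406-41330465 on the plus strand. The stretch of Bst2 is chr16:18255058-18255117 and that of Psmb10 chr19:50743331-50743390, both on the minus strand. Of the 51 measured interferon genes 41 had a promoter in the reference table, and 22 of these (53.7%) held the letters in those 250 bases, against 3.41% of all 33469 windows in the table. A match describes the letters and is not evidence of a bound factor.

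Irf7, a master transcription factor of the response, had a log2 signal of 9.30 in rat 1, 11.68 in rat 2, 11.41 in rat 3, 8.74 in rat 4, 9.83 in rat 5, 11.35 in rat 6, 9.15 in rat 7, 10.28 in rat 8 and 10.11 in rat 10. Rats 2, 3 and 6 were at 11.35 or above and no other rat exceeded 10.28. Isg15, a ubiquitin-like protein that is attached to other proteins, was 7.55, 11.61, 9.89, 6.99, 8.27, 10.15, 7.82, 8.37 and 8.69 in the same order of rats, a 24.5-fold range with the same 3 rats on top. Rsad2, the antiviral enzyme viperin, was 6.00, 10.35, 8.11, 5.80, 6.74, 8.09, 5.37, 6.36 and 7.03, a 31.5-fold range. The values of Irf7 fell into separate clusters, so no correlation or slope on Irf7 was computed for this set.

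Ifit2, which binds foreign RNA, ranged 18.9-fold (6.56 to 10.79, median 7.30), and its second probe set ran from 6.01 to 9.58 with the same 3 rats highest. Usp18, which removes Isg15 from proteins, ranged 11.7-fold (6.46 to 10.01), and Oas1a, a sensor of double-stranded RNA, 9.88-fold (7.06 to 10.36). Ifi27l2b and Ifi27, the brightest members, reached 12.67 and 12.26 in rat 2. The steady end of the list held Psmb10 and Tapbp, parts of the antigen processing machinery, with SDs of 0.13 and 0.17, and Ifi35 with 0.15. Psmb10 and Tapbp both hold the ISRE letters.

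Rat 2 was the highest of the 9 for 39 of the 51 members. Rats 2, 3 and 6, chosen from these values, were the 3 highest for 25 of 51 (49%), and the same 3 rats were the 3 highest for 180 of all 11351 genes (1.59%). With the deposited scaling kept these were the 3 highest for 16 of 51 (31.4%), against 0.282% of all genes. Without rat 2, 30 of 51 members (58.8%) still ranged at least 2-fold, against 20.7% of all genes. Slfn4, Apol9a, Tmem106a, Parp12 and Rnf213, which are not on the list, also had rats 2, 3 and 6 as their 3 highest. Slfn4, a schlafen gene of myeloid cells, was 11.23, 11.48 and 11.42 in rats 2, 3 and 6, against 6.73 to 9.67 in the others, while its second probe set was near the filter (5.01 to 5.89) and did not show the pattern. The 3′ to 5′ Gapdh ratio was 1.42, 1.67 and 1.41 in rats 2, 3 and 6, 1.42 in rat 10 and 1.21 to 1.30 in the other 5. Of the 51 members 1, Trim25, had a slope on that ratio past the limma threshold, and the part of RNA integrity in the pattern was otherwise not tested.

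In proximal colon the mean of the 51 members ran only from 8.11 to 8.49, while in distal colon it ran from 7.76 in rat 4 to 9.30 in rat 2. Rat 3, high in distal colon, was the lowest rat there. The proximal array of rat 3 also stood apart in muscle genes, with a list mean of 11.05, against 7.28 to 8.30 in the other rats. The part of this in its low interferon mean was not tested. None of the 51 members passed the limma F-test for differences between rats shared by both regions, described further on, which called 1.7% of all genes (9 members at an unadjusted p below 0.05).

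**Figure D2:**
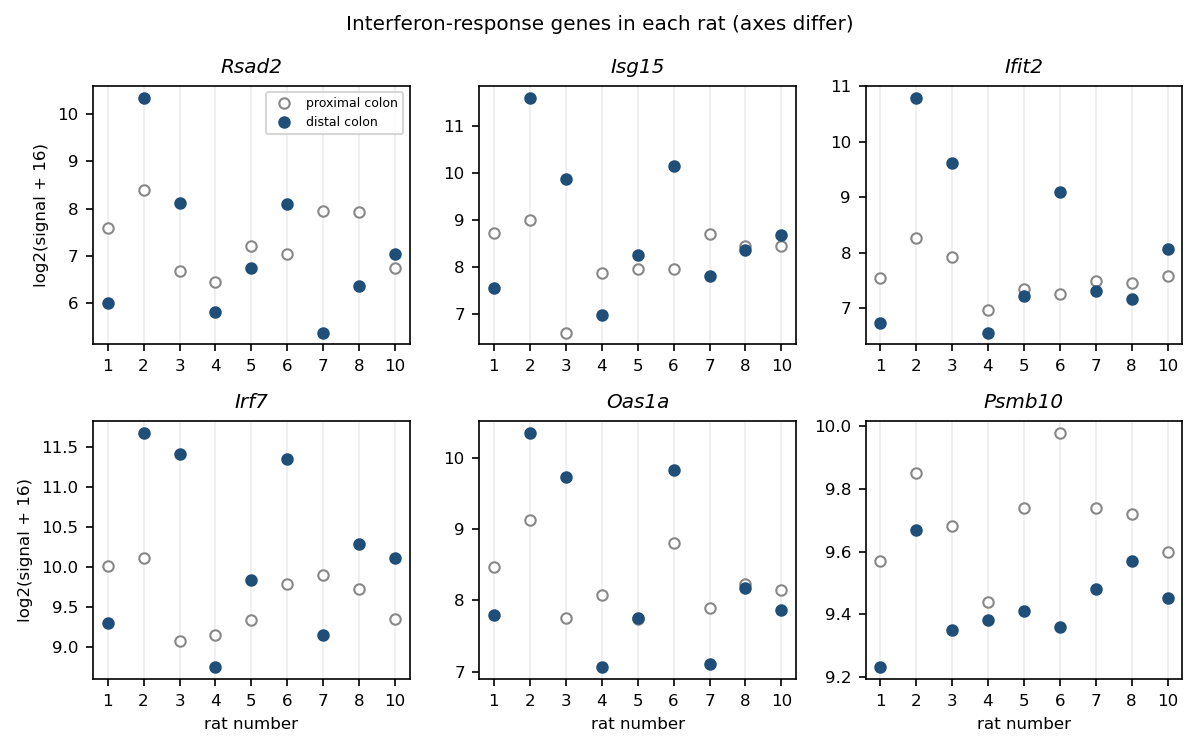
Log2 signal (y axis, scaled separately in each panel) of 6 interferon-response genes against rat number, with distal arrays as filled points and proximal arrays as open points. Rats 2, 3 and 6 are the highest filled points for Rsad2, Isg15, Ifit2, Irf7 and Oas1a, and not for Psmb10; each region was normalized by itself, so filled and open heights are not to be compared.

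Among sodium transport genes, the β and γ subunits of the epithelial sodium channel separated the rats into a high and a low set. Of 30 genes on the list 25 were measured, with a median SD of 0.28, and 11 (44%) ranged at least 2-fold. Scnn1g, the γ subunit, was 7.03 in rat 1, 7.77 in rat 2, 7.21 in rat 3, 7.28 in rat 4, 10.01 in rat 5, 6.58 in rat 6, 9.82 in rat 7, 9.72 in rat 8 and 10.16 in rat 10. Rats 5, 7, 8 and 10 thus lay between 9.72 and 10.16 and no other rat exceeded 7.77. A second Scnn1g probe set divided the rats in the same way, with 8.65 to 8.98 in those 4 rats and 5.80 to 7.03 in the other 5.

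Scnn1b, the β subunit, was 8.62, 8.27, 8.16, 8.26, 9.47, 8.32, 9.42, 9.29 and 9.40 in rats 1 to 8 and 10. The same 4 rats were again highest, with a gap of 0.66 log2 units to the next. In proximal colon Scnn1g spanned 5.59 to 6.87 and Scnn1b 7.13 to 8.12, with no such division. These Scnn1g values lay near the level of the filter on low signals (5.46), where differences are understated. Scnn1a, the α subunit, was steady in distal colon (10.66 to 11.19, SD 0.16), and so were Hsd11b2, which keeps glucocorticoids off the aldosterone receptor (SD 0.14), and Fxyd4, a regulator of the sodium pump (SD 0.17).

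Slc9a3, the sodium-hydrogen exchanger of the brush border, showed the reverse order, with 9.74, 10.09, 9.07 and 10.52 in rats 5, 7, 8 and 10, against 10.60 to 11.70 in the others. These 4 rats were its 4 lowest, although rat 10 (10.52) and rat 2 (10.60) lay close together. Sgk1, the kinase through which aldosterone and glucocorticoids raise channel activity, was 12.09, 12.43, 11.75, 11.26, 12.76, 10.74, 12.51, 12.02 and 12.62. Its highest rats were 5, 10 and 7, but rat 2 came next and rat 8 was close to the median. Per1, a clock gene that both hormones induce, was highest in rat 10 (9.02) and lowest in rat 6 (6.54).

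Rats 5, 7, 8 and 10 were chosen from the values of Scnn1g and Scnn1b. They were the 4 highest for 159 genes (1.4%) and the 4 lowest for 255 (2.25%). On the sodium list they were the 4 highest for 3 of 25 (12%) and the 4 lowest for 1, Slc9a3. The 3 were Scnn1g and Scnn1b, which count by the choice of rats, and Fkbp5, a gene of the glucocorticoid response. The widest gap among all genes of this order was that of Scnn1g (1.95 log2 units), followed by Scnn1b, the genes used to choose the rats. Other genes with the order were Padi1, which converts arginine in proteins to citrulline, Aff4, a scaffold of transcription elongation, and B3gnt7, which extends sugar chains, with gaps of 0.38, 0.27 and 0.20. On the low side the widest gap was that of Dpep1, a brush border peptidase (0.68). In a table of rat genes Scnn1b and Scnn1g are neighbours on chromosome 1. Neither passed the F-test for rat differences shared by both regions, in which the proximal Scnn1g values lay near the low end of the scale.

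On the list of iron and heme uptake, Slc11a2, Slc46a1 and Ncoa4 also had rats 5, 7, 8 and 10 as their 4 highest. Slc11a2, the DMT1 transporter that brings ferrous iron into the cell, was 9.03, 9.18, 9.76, 8.92, 10.61, 10.51, 11.33, 10.96 and 10.94 in rats 1 to 8 and 10. Rats 5, 6, 7, 8 and 10 were at 10.51 or above and the other 4 at 9.76 or below. The second Slc11a2 probe set placed rats 5, 7, 8 and 10 at 8.05 to 8.33 but rat 6 (7.52) among the low rats, so the probe sets disagree on rat 6. In proximal colon the first probe set spanned only 7.78 to 8.21.

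Slc46a1, a carrier of folate and heme, was 8.42, 8.71, 7.97, 8.83, 9.33, 9.02, 9.77, 9.55 and 9.29. Rats 5, 7, 8 and 10 were its 4 highest, with a gap of 0.27 to rat 6. Of the 24 measured genes of the list (36 in all), 3 (12.5%) thus had these 4 rats on top, the third being Ncoa4, which delivers ferritin for breakdown, against 1.4% of all genes. With the deposited scaling kept the number was 1 (4.17%), against 0.634% of all genes.

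The list's median SD was 0.25, and 10 of 24 (41.7%) ranged at least 2-fold. Without rats 3 and 7 the number was 5 (20.8%, against 15.4% of all genes), which were Slc11a2, Slc46a1, Hp, Hfe and Flvcr1. Tfrc, the transferrin receptor, spanned 11.36 in rat 4 to 12.09 in rat 8, and Slc40a1, the iron exporter ferroportin, had an SD of 0.19. Steap4, a metalloreductase, was the most variable member (4.93 to 7.77) and was highest in rats 7 and 3. It had a slope of 0.88 on the muscle gene Des (adjusted p = 0.000573, limma), a fit described below.

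**Figure D3:**
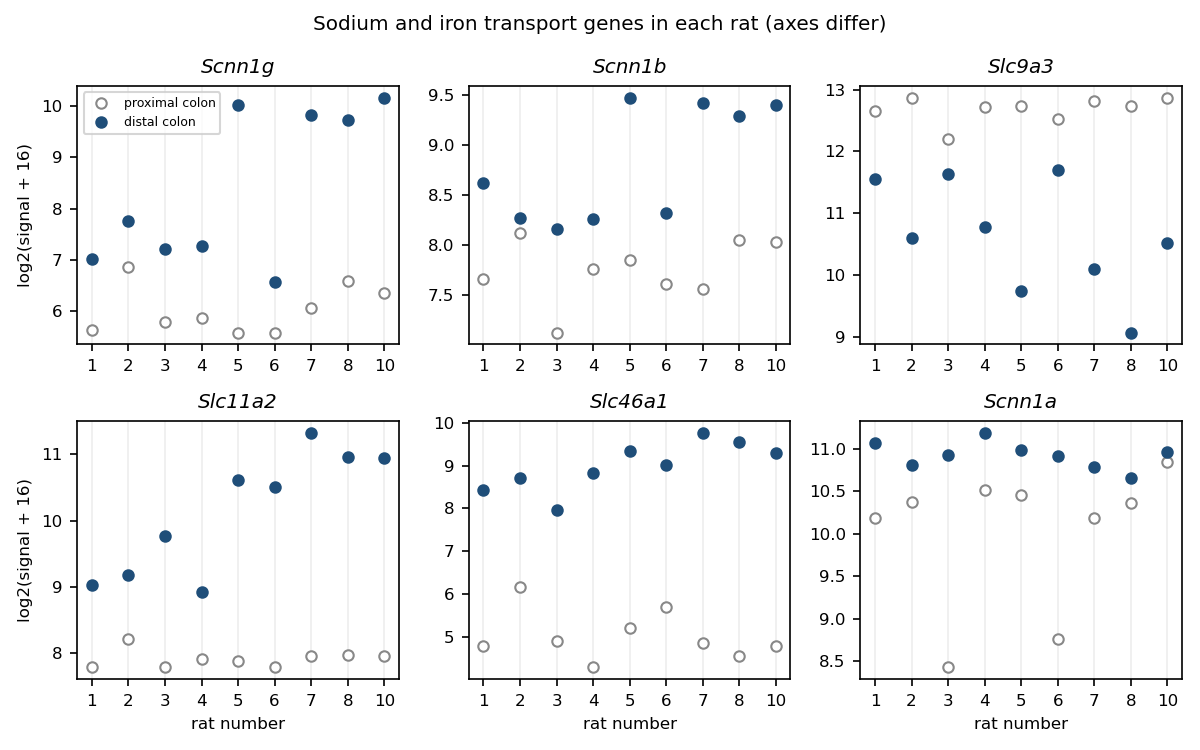
Log2 signal (y axis, scaled separately in each panel) of sodium and iron transport genes against rat number, with distal arrays filled and proximal arrays open, each region normalized by itself. Rats 5, 7, 8 and 10 form the high set for Scnn1g (9.72 to 10.16) and Scnn1b (9.29 to 9.47) and the low end for Slc9a3, and Scnn1a shows no such division in the filled points.

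Potassium, chloride and water transport genes spread in a similar measure, with 13 of 32 measured members (40.6%) ranging at least 2-fold. Clca4 was the most variable (9.16 to 10.45 to 11.73, lowest, median and highest). Car4, a carbonic anhydrase of the colonic surface, was lowest in rats 8 and 7 (9.90 to 11.65 over the rats), and Guca2a, the hormone guanylin, was steady (12.57 to 13.02). Slc26a3, the chloride-bicarbonate exchanger, ran from 12.22 in rat 8 to 12.86 in rat 10.

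Proliferation genes varied little more than genes in general, and were lowest most often in rats 7 and 8. Of 73 genes on the list 62 were measured, with a median SD of 0.27, and 19 (30.6%) ranged at least 2-fold. Mki67, a protein of dividing nuclei, was 8.72, 8.43, 8.85, 8.66, 8.15, 8.77, 7.86, 7.85 and 8.30 in rats 1 to 8 and 10, so rats 7 and 8 were lowest. Top2a, which untangles DNA before division, was 8.13, 7.97, 7.53, 8.07, 8.14, 8.67, 7.43, 6.87 and 7.47, again with rats 8 and 7 lowest. Its second probe set also had rats 7 and 8 lowest (6.48 and 6.66).

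Other variable members were Cdca3 (6.94 to 8.12), Ccna2, cyclin A (6.27 to 7.61), Racgap1, which acts in cell cleavage (6.64 to 7.88), and Plk1, a mitotic kinase (5.99 to 7.41). Rats 7 and 8 were the 2 lowest for 11 of 62 members (17.7%), against 4.25% of all genes, and for 0 of 62 with the deposited scaling kept, where the share of all genes was 0.229%. Rat 6 was the highest for 20 of 62. The brightest members were the cyclins Ccnd2 (11.75 to 12.27) and Ccnd1 (11.36 to 12.10), and neither followed Mki67.

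A slope on Mki67 was fitted for every gene, in log2 units per log2 unit of Mki67. No gene passed an adjusted p of 0.05 in limma (1343 at an unadjusted p below 0.05). Of the 61 other members of the list 56 had a slope above 0, with a median of 0.35, while 49.9% of all genes had a slope above 0. The strongest slopes above 0 were those of Slc9a3 (2.17 ± 0.29, SE), Rab27b, Prdx6, Prom1, Clcn2 and Ptprh, each with an adjusted p of 0.136 in limma. The slope of Scnn1g lay below 0 (-3.41 ± 0.56, SE, adjusted p = 0.136, limma). Mki67 and Top2a had a Pearson r of 0.634 over the 9 rats (Spearman's rho 0.567, exact permutation p = 0.0678, adjusted 0.102 over 9 pairs computed). Without rats 7 and 8, the farthest from the median of Mki67, r was 0.173, so the relation rested on these rats.

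Muscle wall, connective tissue and vessel genes varied widely, and rats 3 and 7 were usually highest. Des, desmin of the muscle cytoskeleton, was 8.02 in rat 1, 7.80 in rat 2, 10.06 in rat 3, 7.42 in rat 4, 7.40 in rat 5, 7.05 in rat 6, 10.13 in rat 7, 7.70 in rat 8 and 8.20 in rat 10. Rats 3 and 7 were above 10 and no other rat exceeded 8.20. Actg2, the smooth muscle γ actin, was 7.64, 6.75, 10.24, 6.72, 5.77, 5.36, 11.13, 6.91 and 6.87, a 54.7-fold range. Tagln, which stiffens actin bundles, was 10.45 and 10.56 in rats 3 and 7, against 4.99 to 7.74 in the others.

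The same held of matrix genes. Col3a1, a collagen of soft connective tissue, was 7.98, 8.69, 11.66, 8.36, 7.51, 7.66, 12.34, 9.49 and 8.58, with rats 7 and 3 highest and rat 8 next. Postn, Lum, Dcn and Mfap5, all proteins of the matrix, ranged 27.4-fold to 44.8-fold with rat 7 highest. Plvap and Eng, of vessel endothelium, ranged 10.7-fold and 7.77-fold with rat 3 highest.

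Rats 3 and 7, chosen from these values, were the 2 highest for 25 of 33 measured smooth muscle genes (75.8%), 42 of 49 fibroblast and matrix genes (85.7%) and 12 of 15 endothelial genes (80%), against 6.44% of all genes. Tpm1 and Fhl1 on the muscle list and Timp2 and Gsn on the matrix list, the brightest members of each, did not rank this way or spread this widely (SDs of 0.12 to 0.34). A range of at least 2-fold was found in 25 muscle (75.8%), 43 matrix (87.8%) and 13 endothelial genes (86.7%). Without rats 3 and 7 it was found in 13 (39.4%), 32 of 49 (65.3%) and 7 of 15 (46.7%), against 15.4% of all genes. The 3′ to 5′ Gapdh ratio was the highest of the 9 in rat 3 and the lowest in rat 7. In proximal colon the mean of the muscle list was 11.05 in rat 3, 7.78 in rat 7 and at most 8.30 in any other rat. That of the matrix list was 9.89 in rat 3, 7.77 in rat 7 and at most 8.15 in any other. Rat 3 thus stood apart in both regions for these 2 lists, and rat 7 in distal colon only.

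A slope on Des was fitted in limma for the other 11350 genes. It passed an adjusted p of 0.05 for 285 (2.51%), of which 275 (2.42%) were higher with Des and 10 (0.0881%) lower (1108 at an unadjusted p below 0.05). Higher with Des were 18 of 32 muscle, 40 of 49 matrix and 9 of 15 endothelial genes, and none of these lists had a member lower. The largest slopes past the threshold were those of Tagln (1.72 ± 0.09, adjusted p = 1.03e-05), Actg2 (1.68 ± 0.12, adjusted p = 2.89e-05) and Tpm2 (1.65 ± 0.10, adjusted p = 2.5e-05), all in limma with SE. Cpe, Ccn2 and Hspb1, which sit on the enteroendocrine, immediate early and chaperone lists, were also higher with Des (adjusted p = 0.000892, 0.000511 and 0.00122). Without rats 3 and 7 no gene had a slope on Des past the threshold among the 7 rats left (341 at an unadjusted p below 0.05), so these calls rest on the 2 rats. Without rat 3 alone 125 genes passed.

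Des was also correlated with single genes over the 9 rats. Des and Actg2 had r = 0.977 (rho 0.917, exact permutation, adjusted p = 0.00155 over 9 pairs) and r = 0.828 without rats 3 and 7. Des and Myh11, the smooth muscle myosin, had r = 0.981 (rho 0.917, exact permutation, adjusted p = 0.00155) and 0.81 without them. For Des and Col1a1, the main fibrillar collagen, r was 0.929 (rho 0.817, exact permutation, adjusted p = 0.0112) and 0.37 without them, so this relation rested on the 2 rats. Des and Acta2 had r = 0.957 (exact permutation, adjusted p = 0.0091) but a rho of 0.617 (adjusted p = 0.154), with 0.587 without the 2 rats.

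Fat cell genes had another order of rats. Car3, a carbonic anhydrase of fat and muscle, was 5.87, 10.81, 11.99, 5.77, 7.11, 6.30, 5.54, 8.26 and 9.60 in rats 1 to 8 and 10, an 87.3-fold range with rats 3, 2 and 10 highest and rat 7, high in muscle genes, lowest. Cfd, adipsin, Fabp4, a fatty acid carrier, Lpl, lipoprotein lipase, and Adipoq, adiponectin, ranged 69.6-fold, 45.3-fold, 31.9-fold and 30.6-fold, each with rats 3, 2, 10 and 8 as the 4 highest in that order. A list of 18 adipocyte genes was drawn up after these values were seen. On it rats 2 and 3 were the 2 highest for 10 of 16 measured members (62.5%), against 2.55% of all genes. Adipoq was among the 34 genes with a slope on the 3′ to 5′ Gapdh ratio (10.13, adjusted p = 0.0408, limma), and no other member passed the threshold. Plin1, Cidec, Car3, Lpl, Fabp4 and Plin4 came near it, with slopes of 5.65 to 13.80 (adjusted p = 0.0518 to 0.0978, limma). Those of Pparg (-0.56) and Gpd1 (-0.01) lay below 0. The part of RNA integrity in this order of rats was not tested.

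Many lymphocyte genes, though not all, were highest in rats 10 and 5. Cd3e, of the T cell receptor complex, was 6.53, 6.26, 7.85, 6.79, 8.47, 6.08, 5.58, 7.71 and 8.93 in rats 1 to 8 and 10, and Ms4a1, the B cell surface protein CD20, was 7.07, 8.52, 7.62, 8.85, 9.61, 7.32, 6.55, 8.88 and 9.69. Rat 7, the highest in matrix genes, was the lowest of all for both. Rats 5 and 10, chosen from these values, were the 2 highest for 16 of 29 T and NK cell genes (55.2%), 8 of 14 B and plasma cell genes (57.1%) and 4 of 11 genes of MHC class II presentation (36.4%), against 5.17% of all genes. The last 4 were Cd74, RT1-Db1, Ciita and RT1-Da. With the deposited scaling kept the numbers were 14 of 29 (48.3%), 4 of 14 (28.6%) and 0 of 11, against 1.7% of all genes. Ptprc, the common leukocyte antigen, ranged 7.55-fold (7.67 to 10.58). Some members ran the other way. Gzmb, a granzyme of killer cells, was lowest in rats 5 (5.41) and 10 (5.50), Nkg7, of cytotoxic granules, was lowest in rat 10 (5.01), and Gzma was highest in rat 2 (6.53). Jchain, of secreted antibodies, was highest in rats 3 and 7 and had a slope on Des (0.85, adjusted p = 0.0146, limma).

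Of other blood-derived cells, macrophage, dendritic and granulocyte genes had a 2-fold range in 18 of 23 (78.3%). C1qa, a complement gene of tissue macrophages, was highest in rats 3 and 7 (6.94 to 9.41) and had a slope on Des (0.68, adjusted p = 0.00302, limma), as did C1qc and Mrc1 but none of the other 20 members. Fcgr2b and Laptm5, the most variable members, were highest in rat 10 (8.52 and 9.13), Cybb in rat 5 (8.78) and Lyz2 in rat 4 (11.18). The mast cell proteases Mcpt1 (8.75 to 10.76) and Mcpt10 (6.22 to 7.83) were highest in rats 4 and 1 and lowest in rat 2. Other mast cell genes had another order, with Tpsb2 (6.53), Cpa3 (7.24) and Ms4a2 (6.57) highest in rat 7 and Mcpt4 (6.15) in rat 8. Hbb, the globin of red cells, ran from 10.18 in rat 6 to 12.14 in rat 10.

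**Figure D4:**
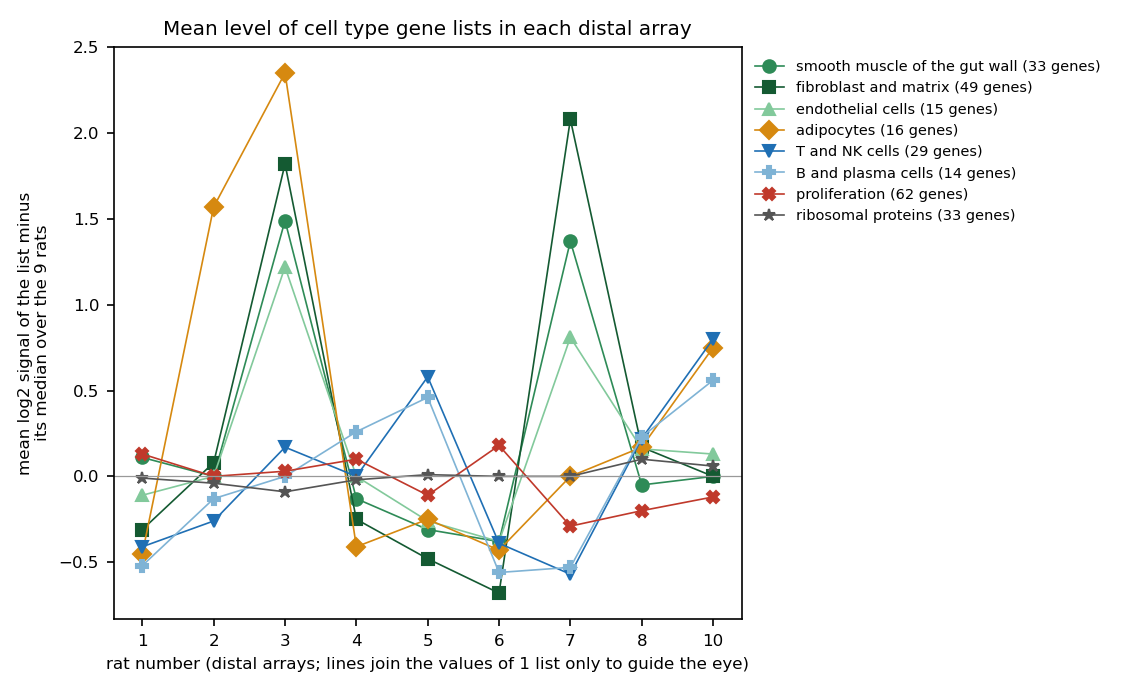
Mean log2 signal of the measured members of 8 gene lists in each distal array (x axis, rat number), minus the median of that mean over the 9 rats (y axis, log2 units). Muscle, matrix and endothelial lists peak in rats 3 and 7, adipocyte genes in rats 3 and 2, lymphocyte lists in rats 5 and 10, and ribosomal protein genes stay near 0.

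Some genes separated the rats in the same way in both regions of the colon, which the 9 proximal arrays allow to be tested. In a limma fit of all 18 arrays with region as a term, an F-test asked whether rats differed by more than the 2 arrays of a rat differed from each other. At an adjusted p of 0.05 it called 193 of 11351 genes (1.7%; 2474 at an unadjusted p below 0.05). Without rat 3, 4, 8 or 10 it called 116, 95, 121 and 103, and without rat 7 it called 315. Of the 551 genes that ranged at least 4-fold in distal colon, 37 were called, while 187 of them had a slope on Des, and 3 had both.

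Btnl8, a butyrophilin-like gene of gut epithelium whose family acts on intraepithelial T cells, was the most variable gene of all, with an SD of 3.27. It was 4.50, 4.70 and 5.25 in rats 1, 4 and 8, against 10.80 to 11.79 in the other 6, a 156-fold range, so in the low rats it was below the filter on low signals. The same 3 rats were low in proximal colon (4.97 to 5.78, against 10.36 to 12.18), and the F-test gave an adjusted p of 2e-07. Fam111a, a protease of replication forks, was 7.35, 7.18, 7.29 and 6.90 in rats 1, 3, 5 and 8, against 10.05 to 10.66 in the other 5. Its proximal values divided the same rats (7.95 to 8.24 against 11.06 to 11.47), with the smallest adjusted p of all genes in the F-test, 8.95e-09. Btnl8 and Fam111a were each read by 1 probe set. Whether that probe set misses an allele in the low rats was not tested.

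Genes of the rat major histocompatibility complex, named RT1, were prominent here. They form a multigene family in which a probe set can read near-identical copies or miss an allele, so which member a value belongs to is uncertain. RT1-Bb, a class II β chain, was 9.77, 10.62, 9.96 and 10.23 in rats 2, 5, 6 and 7, against 4.47 to 5.47 in the other 5, with the same division in proximal colon (adjusted p = 5.91e-05). A second RT1-Bb probe set had another division, with 8.94 to 9.76 in rats 2, 3, 7 and 10, against 4.68 to 6.38 in the others. RT1-Ba, a class II α chain, was 5.13 in rat 6 and 8.01 to 11.16 in the others (adjusted p = 0.000436). No other RT1-Ba probe set had rat 6 lowest. In one of them rat 6 was at 9.04 (7.36 to 10.20 over the rats) and in another it was the highest (7.08). RT1-A, a class I gene, was 6.34 in rat 6 and 9.23 to 9.89 in the others (proximal 7.12 in rat 6). Of 18 RT1 genes measured, 9 (50%) were called by the F-test. In the table of rat genes Btnl8 lies on chromosome 20, as RT1-Ba and RT1-Bb do. Without rat 6 the adjusted p of RT1-A in this F-test was 0.168, and with the mean of its probe sets that of RT1-Ba was 0.0995.

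Among the other called genes were Adh4, an alcohol dehydrogenase, which was 5.91 and 5.17 in rats 3 and 6, against 7.68 to 8.33 in the other 7 (adjusted p = 5.41e-06), and Ephx2, the soluble epoxide hydrolase, which was 6.27 in rat 4 and 8.55 to 9.16 in the others (adjusted p = 6.35e-05). Without rat 4 the adjusted p of Ephx2 was 0.116. Sv2b, a vesicle protein, was 10.53 to 11.83 in rats 1, 2, 5 and 6, against 7.81 to 8.86 in the others, with the same 4 rats high in proximal colon. Abca1, which exports cholesterol, was 8.04 to 8.88 in rats 2, 3, 6 and 10, against 6.39 to 6.90 in the others (adjusted p = 0.000233). Of the other 3 Abca1 probe sets, 1 was higher in the same rats (7.07 to 7.49) and 2 were not. The call was lost without rat 2, 3, 6 or 10 and with a pseudocount of 1 (adjusted p = 0.844 to 0.967), settings in which one of those 2 had the highest mean and stood for the gene, and with the mean of the probe sets (0.0548).

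Division into separate clusters was found in 1447 genes (12.7%) of distal colon, 56 of them with at least a 4-fold range. In 5 of the 56 (8.93%) the same rats were apart in proximal colon: Btnl8, RT1-Bb, Fam111a, Sv2b and Abca1. Scnn1g, Slc11a2 and Irf7 were among the 56 but not among the 5. Over the 10 genes whose values could be correlated between the regions, RT1-Ba alone passed (r = 0.932, rho 0.867, exact permutation, adjusted p = 0.0162), and r was 0.789 without rats 3 and 6. Its adjusted p was 0.0898, 0.147 and 0.0707 without rat 2, 6 or 7 and 0.164 with the mean of its probe sets. Des had r = 0.612 (rho 0.367, exact permutation p = 0.0847, adjusted 0.191) and 0.0533 without rats 3 and 10.

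**Figure D5:**
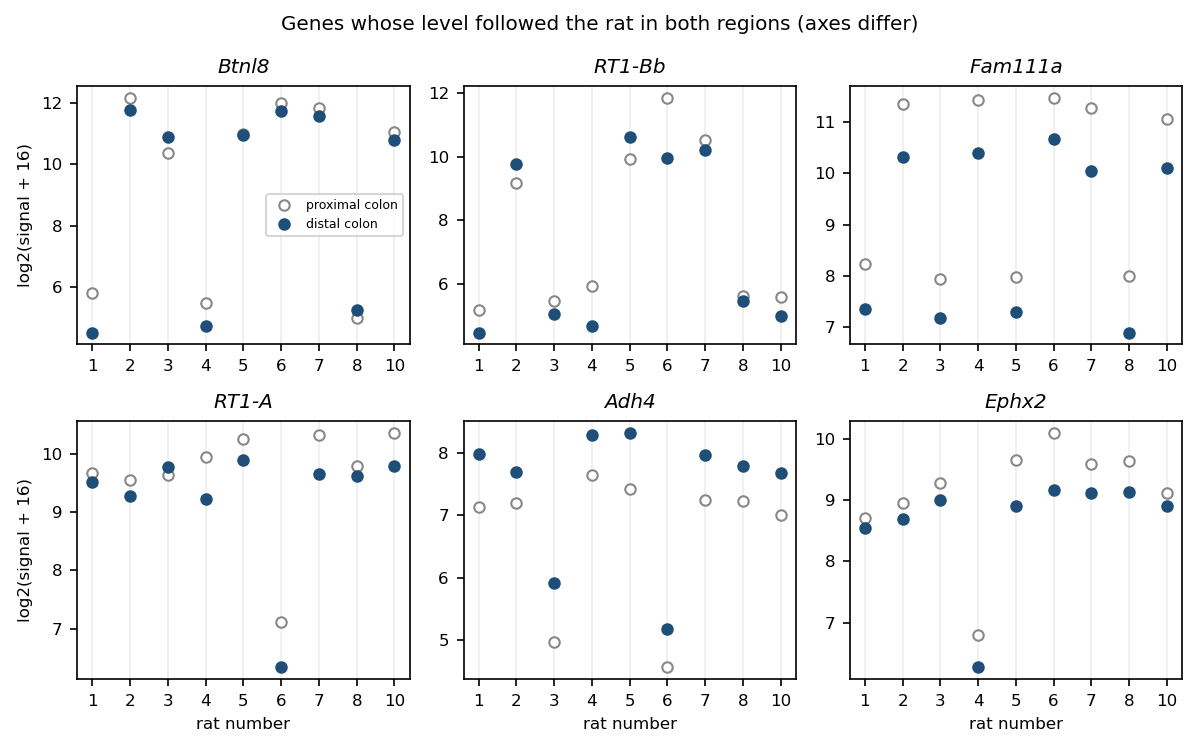
Log2 signal (y axis, scaled separately in each panel) of 6 genes called by the F-test for rat differences against rat number, with distal arrays filled and proximal arrays open, each region normalized by itself. Btnl8 is low in rats 1, 4 and 8, Fam111a in rats 1, 3, 5 and 8, RT1-A in rat 6, Adh4 in rats 3 and 6 and Ephx2 in rat 4, in both regions.

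Called by the same F-test were also Tfrc (adjusted p = 0.0334), Sgk1 (0.0226), Alas1, the first enzyme of heme synthesis (0.0018), Atf3, a stress-induced transcription factor (0.0304), and Tnfsf10, the death ligand TRAIL (0.02). Pgk1, a glycolytic enzyme often taken as constant, ran from 11.32 in rat 2 to 12.33 in rat 5 (adjusted p = 5.91e-05). The call of Tfrc was lost without rat 1, 2, 3, 8 or 10, that of Sgk1 and that of Tnfsf10 without rat 6 or 10, and that of Atf3 without rat 3, 4, 5, 6 or 10. With the deposited scaling kept, Tfrc, Alas1 and Tnfsf10 were not called (adjusted p = 0.0835, 0.0682 and 0.09).

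Of 27 measured goblet and mucus genes 5 (18.5%) ranged at least 2-fold, a share near the 21.9% of all genes: Zg16, Spink4, Clca4, Muc5b and Klk1. Muc2, the gel-forming mucin of the colon, ran from 13.01 to 13.38 and Fcgbp, which is bound into the same gel, from 12.53 to 13.01. Both were correlated over the rats with r = 0.82 (rho 0.95, exact permutation, adjusted p = 0.0136), and r was 0.862 without rats 8 and 10. Zg16, a lectin of the mucus layer, ranged 6.93-fold (9.12 in rat 7 to 11.91 in rat 1) and Spink4, a goblet cell protease inhibitor, 6.36-fold.

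Colonocyte genes had a 2-fold range in 11 of 38 (28.9%) and a median SD of 0.22, and rat 8 was the lowest for 17 of them. Enteroendocrine genes varied more, in 10 of 16 (62.5%), with Pyy, the satiety hormone, from 6.71 in rat 7 to 9.14 in rat 1. Epithelial defence genes did so in 9 of 18 (50%), led by Dmbt1, a secreted scavenger protein (7.76 to 10.81, lowest in rat 7). Scgb1a1, a secretoglobin, was bright in all rats (11.52 to 13.19).

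Stress pathways varied in unequal measure. Genes of the p53 and damage response, of interest after an alkylating carcinogen, had a 2-fold range in 14.3% of 35 measured members, against 21.9% of all genes, with Tnfsf10 (6.77 to 8.19) the most variable. Mdm2, which degrades p53 and is induced by it, ran from 10.29 to 11.09, Ccng1, cyclin G, from 10.89 to 11.86 and Gdf15, a stress cytokine, from 7.75 to 8.67, each highest in rat 8. The share was 9.52% of heat shock genes and 7.41% of endoplasmic reticulum stress genes. Immediate early genes had a 2-fold range in 17 of 34 (50%), with rat 2 the highest for 15; Fosb, of the AP-1 factor, ran from 5.38 in rat 4 to 7.69 in rat 2.

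Cholesterol synthesis genes ranged at least 2-fold in 25%, and rat 4 was the highest for 15 of 20, among them Idi1 (8.34 to 9.74), Dhcr7 (8.04 to 9.37) and Mvk (7.14 to 8.40). Clock genes did so in 7 of 17 (41.2%), with Per2 from 9.29 in rat 3 to 10.96 in rat 10. Among antioxidant and xenobiotic genes 12 of 32 (37.5%) did, with Nqo1, a quinone reductase, from 8.81 in rat 10 to 10.75 in rat 7. Ribosomal protein (6.06%), respiratory chain (2.63%) and housekeeping genes (8.33%) were the steadiest lists, with median SDs of 0.07, 0.10 and 0.11.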

How the data were processed

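Per the submitters' processing notes, the authors used MAS5 to compute the deposited probe set intensities, which are linear. Neither the MAS5 version nor a scaling target is given in the sources used here. Log2(intensity + 16) was taken for 31042 probe sets that are not controls (of 31099), and the 9 distal arrays were quantile normalized, the proximal arrays by themselves. The pseudocount understates folds of dim genes. The lowest 30% by distal mean (below 5.46) were left out, which kept 21729, and each gene was represented by its probe set of highest mean. Array annotation gave 20826 probe sets 1 symbol and 436 several, and 9780 were unnamed here; a rat gene table (GRCr8), used for names and neighbours, held 20758. Of 11351 genes, 3195 had several probe sets.

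Spread was described by SD and range. Slopes and the rat F-test (region as a term) used limma 3.58.1 in R 4.3.3 (lmFit, eBayes with intensity trend, two-sided, Benjamini-Hochberg over all genes), tested on simulated data. Correlations used exact permutations of pairings, two-sided, with none where a gene's values fell into separate clusters (a gap above 0.3 of the range with at least 3 arrays on each side). Other values used Python 3.11.15, numpy 2.4.6, pandas 2.3.3, scipy 1.17.1 and matplotlib 3.10.9. No array copied another (at most 0.00322% identical values over 36 pairs).

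Genes named were the 20 brightest, the 20 of largest SD, the 10 steadiest of the 500 brightest, up to 4 most variable and 2 brightest members of each list, the strongest slopes, and listed pairs. Further genes, second probe sets and rats named in counts were picked with their values in view. The subject, members and lists were chosen with earlier results of these data known. Some genes and 1 list are not reported here. The Tfrc, Sgk1 and Atf3 F-test calls are named since they sit on lists used here. Columns of no sample numbered 0.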

Additional observations from a re-analysis of the deposited data

Results flagged for a closer look

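Single rats stood far from the other 8 in 12 of the 171 genes examined, where the gap to the nearest rat exceeded 0.493 of the whole range of the 9 values; chance alone gives about 1 such gene in 20.

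The low values in rat 6 for RT1-A (6.34, next 9.23, highest 9.89) and in rat 4 for Ephx2 (6.27, next 8.55, highest 9.16) had the widest relative gaps, at 0.816 and 0.788 of the range, and both rats were also the lowest in proximal colon. Interferon genes Ifit3 (8.96, next 7.01, lowest 5.14) and Ifi35 (9.28, next 8.94, lowest 8.78) stood apart at the top in rat 2, and Trim25 (11.70, next 11.23) in rat 3. In rat 10 the glucocorticoid-response gene Fkbp5 was high (8.84, next 8.15) and Nqo1 low (8.81, next 9.80). In rat 5 Hsd11b2 (11.41, next 11.65) and COX1 (13.54, next 13.66) were low. Mcpt4 was low in rat 3 (4.76, next 5.58), Klk1 in rat 7 (4.96, next 5.72) and COX2 in rat 8 (13.69, next 13.73).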

How the results depend on the processing

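The 2482 genes with a 2-fold range became 4597 with the deposited scaling, 1187 with a pseudocount of 64, 4181 without a filter and 1301 with the lowest 50% left out (2101 to 2361 leaving out a rat). The rat F-test, which called 193, called 75 with the deposited scaling, 946 with arrays centred on their median and 76 without rats 3 and 7 together, an alternative added after seeing the data (95 to 315 leaving out a rat). Slopes on brightness numbered 6583 with the deposited scaling, which keeps brightness in the values, and 0 otherwise. Slopes on the Gapdh ratio (34) numbered 2 with the deposited scaling, 0 centred on the median, 6 without a filter, 55 with the lowest 50% left out and 106 with the mean of the probe sets (0 to 39 leaving out a rat). Slopes on Mki67 numbered 1 centred on the median (0 to 1 leaving out a rat). Slopes on Des (285) numbered 142 with the lowest 50% left out and 0 without rats 3 and 7 (125 to 285 leaving out a rat). The 1 gene past the threshold in the correlation between regions became 0 with the mean of the probe sets (0 to 1 leaving out a rat). The pairs past the threshold stayed at 5, or 6 without rat 3. The r of Fos and Egr1 turned from -0.253 to 0.235 with the deposited scaling and 0.000926 centred on the median, and that of Mki67 and Des from -0.12 to 0.0208 without rat 6 and 0.334 without rat 7 (-0.559 to 0.334 leaving out a rat); none of these passed. The cause of these shifts was not tested. No paired analysis was possible because no result compares the groups: the rat number is itself the subject of the F-test. With 9 arrays and compressed signals at both ends of the scale, small differences were not detectable.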
